A study of Mus musculus with 13 samples.

Results

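The 7 libraries of transplanted plasma cell tumours were compared with the 6 libraries of plasma cells from mice without a transplanted tumour, 13 of the 13 libraries of the series. The tumours belonged to 4 lines, named D1, D4, D5 and tVk12653, and each line was 1 unit, with the counts of its recipients summed. The genes described are those that changed the same way in all 4 lines. A gene counted as shared when it passed an adjusted p of 0.05 in the test over the 4 lines and again, in the same direction, in a test of each line. Of the 11361 genes tested, 929 (8.18%) were shared and higher in the tumours and 1102 (9.7%) were shared and lower.

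Bulk RNA sequencing had been carried out on 50000 sorted bone marrow cells per library, taken as positive for CD138 (syndecan-1, the surface protein used to isolate plasma cells) and CD45.2 and negative for B220. The strain label of every library was C57/BL6. WT (3 libraries) was wild-type. V (3 libraries) carried V{kappa}*MYC, a MYC transgene under kappa light chain elements that becomes active in germinal centre B cells, and IgG1-Cre, a Cre recombinase made in B cells that transcribe the IgG1 constant region. D1 (2 libraries), D4 (1 library) and D5 (2 libraries) were donor-derived cells from recipients of tumours with V{kappa}*MYC, IgG1-Cre and Nras LSL Q61R/+, an allele of the small GTPase Nras that Cre switches on. tVk12653 (2 libraries) was donor-derived cells from recipients of a transplantable V{kappa}*MYC line. All tumour libraries came from recipients and neither WT nor V was labelled so, so that tumour and transplantation cannot be told apart. Recipients of 1 line are not independent tumours, and D4 had 1 recipient. The sources used here do not give age, sex or treatment of the mice.

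Multiple myeloma is a cancer of plasma cells, the antibody-secreting end stage of the B lineage. Normal plasma cells have left the cell cycle, have silenced much of the B cell programme and devote most of their protein synthesis to immunoglobulin. MYC is a transcription factor that binds the sequence CACGTG with its partner MAX and is known for raising genes of ribosome production, nucleotide synthesis and protein folding.

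Before the comparison, the sort label was checked against the transcripts. Sdc1, which encodes CD138, had 683 to 1123 counts scaled to library size (CPM) in WT and V and 364 to 1426 CPM in the tumours, and its level did not pass the test (log2 fold change -0.14 ± 0.30 (SE), adjusted p = 0.754). Among the plasma cell regulators, Xbp1 was at 1334 to 3388 CPM and Irf4 at 951 to 2416 CPM over the 13 libraries. Mzb1, a chaperone of immunoglobulin assembly, was low in 2 lines, at 0.562 CPM in D4 and at 6.76 and 7.32 CPM in tVk12653, against 127 to 566 CPM elsewhere. Ptprc, which encodes the CD45 used in the sort, was at 506 to 802 CPM in WT and V, at 273 and 248 in D1 and at 198 and 184 in tVk12653, but at 1.68 in D4 and at 1.85 and 6.62 in D5. The libraries of D4 and D5 were therefore nearly without the transcript of a protein by which their cells had been gated.

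Transcripts of most other cell types were more abundant in WT and V than in the tumours. The summed CPM of 19 neutrophil markers was 3751 to 10462 in WT, 2042 to 4060 in V and 96.7 to 1409 in the tumours. The sum of the monocyte and macrophage markers was 478 to 1937 in WT, 296 to 439 in V and 8.98 to 112 in the tumours, and that of the T and NK cell markers was 94.3 to 130, 71.3 to 101 and 2.39 to 9.72. In WT replicate 3 the T and NK sum was mostly Prf1 (53.1 CPM) and Cd4 (44.3 CPM), with Cd3e at 1.42 CPM. For B cell markers the sums were 929 to 1224, 840 to 1090 and 122 to 429. Dendritic cell markers summed to 818 to 851, 717 to 790 and 317 to 482. Basophil, mast cell and eosinophil markers summed to 472 to 619, 416 to 879 and 19.5 to 394. Of the latter, the highest tumour sum, in tVk12653 replicate 2, was mostly Prg3 (372 CPM), and those of D5 were mostly Il5ra (263 and 208 CPM). In WT and V these sums were mostly Prg2 (345 to 815 CPM), while Epx, Ear1 and Ear2 of the same list were at most 15.5 CPM. Megakaryocyte markers were low throughout, at 9.93 to 42.5, 4.28 to 12.0 and 1.53 to 8.03. The sums of erythroid markers overlapped (257 to 1326, 53.3 to 91.8 and 77.1 to 248), but 1 gene, Tfrc, the transferrin receptor, which dividing cells also transcribe, made up 75.6 to 96.8% of the tumour sums. Without Tfrc, a sum taken after the values were seen, they were 195 to 1160 in WT, 22.4 to 71.7 in V and 7.90 to 34.0 in the tumours. The sums overlapped too for markers of stroma and endothelium (138 to 194, 104 to 168 and 77.2 to 779). Of the markers, Ncr1, Vpreb1, Igll1, Rag2, Ppbp, Gp9, Gp1ba, Treml1, Clec1b, Fcer1a and Ear1 had no count in any tumour library, and Emcn had none in any of the 13 libraries. In bulk RNA, fewer cells of a type and less RNA per cell cannot be told apart, and the part of these cells in the genes that fell was not tested. No marker gene was shared and higher, and 44 were shared and lower.

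**Figure D1:**
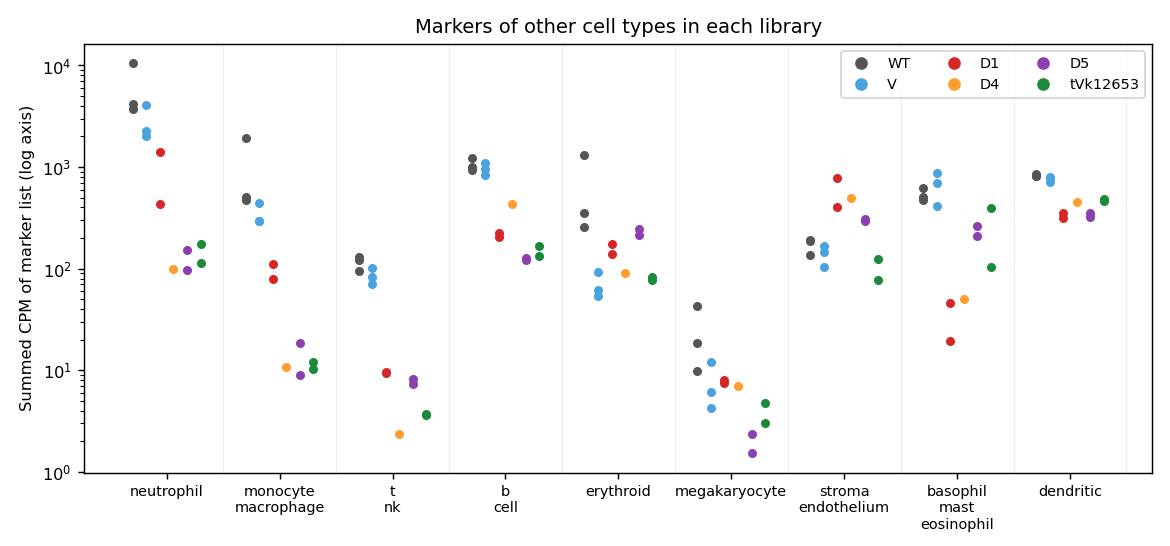
Summed CPM (log axis) of 9 marker lists in each of the 13 libraries, coloured by group. Neutrophil, monocyte, T and NK and B cell sums are higher in all 6 WT and V libraries than in all 7 tumour libraries, while erythroid and stromal sums overlap, the erythroid tumour sums being mostly Tfrc (75.6 to 96.8%).

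Total counts were 2096815 to 8512281 per library, so that 3 counts, taken as the smallest level told from 0, equalled 0.326 to 1.5 CPM. These floors cover counting error only. WT replicate 2 and D1 replicate 1 held the most neutrophil RNA of their sides, 10462 and 1409 CPM. Without both, 974 genes were shared and higher and 1067 shared and lower. Spearman correlations of log2 CPM were 0.949 to 0.987 within groups, 0.784 to 0.898 between lines and 0.721 to 0.823 between tumour and WT or V libraries. Of the sex-linked genes, looked at afterwards, Xist, the transcript of the inactive X chromosome, was at 1492 CPM in WT replicate 1, at most 3.98 in the other WT libraries, at 1496 to 2659 in V and at 3.26 to 97.3 in the tumours. Ddx3y, a Y-linked gene, was at 48.2 to 141 CPM in WT, at 0 in V and at most 0.434 in the tumours, so the groups differed in sex-linked transcripts, and 23 shared higher and 39 shared lower genes lay on X or Y.

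Over the 4 lines, 2110 genes were higher in the tumours (18.6% of those tested) and 1751 lower (15.4%), of which 1354 and 1280 by at least 2-fold. The test of each line, which draws on the spread between libraries of 1 group, called more. D1 had 3101 higher (27.3%) and 3406 lower (30%), D4 2508 (22.1%) and 2669 (23.5%), D5 3452 (30.4%) and 4027 (35.4%), and tVk12653 2914 (25.6%) and 3233 (28.5%). The single library of D4 was assumed to vary like the other groups. Of all genes, 1567 were called higher in 1 or more lines and lower in 1 or more others. A further 930 were called higher in all 4 lines and 1141 lower in all 4, whatever the test over lines.

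**Figure D2:**
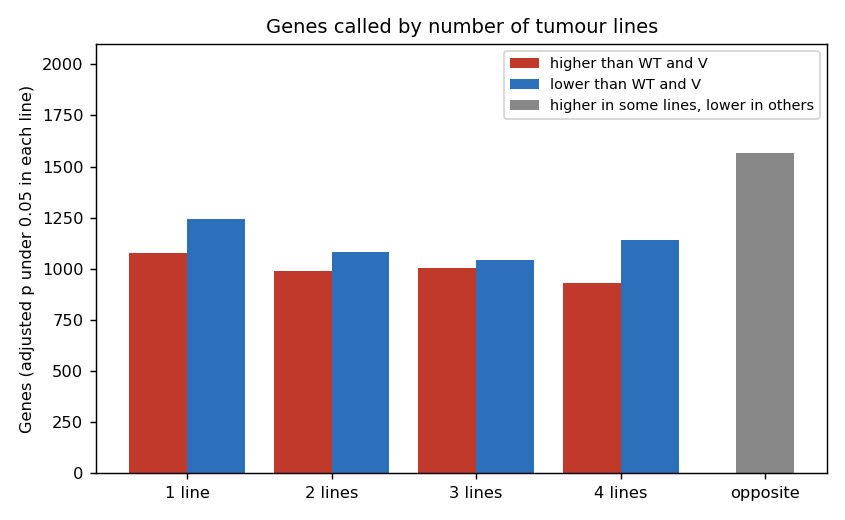
Number of genes (vertical axis) called at an adjusted p under 0.05 in exactly 1, 2, 3 or 4 tumour lines against WT and V, red for higher and blue for lower, with genes called in opposite directions in grey. The bars for 4 lines hold 930 and 1141 genes and the grey bar 1567.

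The shared genes that rose did so by smaller factors than those that fell. The 929 higher genes (8.18% of those tested) had a median log2 fold change of 1.35, with an interquartile range of 0.99 to 1.95, and the 1102 lower genes (9.7%) one of -2.74. In their weakest line the medians were 0.85 and 1.80 in absolute size. At least 2-fold in each line were 358 of the higher and 748 of the lower genes, and at least 8-fold in each line 37 and 237, of which 21 of the lower genes were in the marker lists. All 7 tumour libraries lay on one side of all 6 WT and V libraries for 823 shared higher and 1015 shared lower genes, where 9.07% and 12.1% of all genes tested did so. The weakest line of the higher genes was tVk12653 for 382, and the weakest line of the lower genes was D1 for 415, more often than any other line. Just inside the threshold, by the largest of their 5 adjusted p-values, were Cd82, Pus7l, Nlrp3 and Ybx1 at 0.0499, 0.0499, 0.0498 and 0.0498, and just outside were Apoe, Chmp4b, Nme2 and Akap8l at 0.0501, 0.0501, 0.0502 and 0.0504.

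Myc, the gene of the transgene, was examined whatever its value. It was at 51.8, 73.0 and 34.9 CPM for WT, at 311, 431 and 364 for V, at 905 and 686 for D1, 1649 for D4, 1347 and 1659 for D5 and 8064 and 8283 for tVk12653. Each group lay above the one before it except that D4 and D5 overlapped, and Myc was shared and higher (log2 fold change 4.44 ± 0.63 (SE), adjusted p = 0.00121). The sources used here do not say whether reads of the transgene were counted in this row. Nras, the gene carrying the Cre-activated allele in 3 of the lines, was at 30.8 to 38.1 CPM in WT and V and at 45.6 and 41.7 (D1), 59.2 (D4), 132 and 162 (D5) and 54.5 and 47.2 (tVk12653). It passed over the lines (1.09 ± 0.33, adjusted p = 0.0281) with no overlap, but not in every line, and was not shared. It no longer passed without any 1 of the WT or V libraries (adjusted p = 0.0510 to 0.0663).

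The genes that rose most in their weakest line were mostly ones with little or no transcript in WT and V. Spats2 (chr15:99125926-99213215 in GRCm38.p6) was at 0.355, 0 and 0 CPM for WT, 13.5, 0.713 and 0.973 CPM for V, against 148 and 147 (D1), 215 (D4), 103 and 113 (D5) and 223 and 209 (tVk12653) (log2 fold change 7.77 ± 0.83, adjusted p = 0.000346). Cacnb3 (chr15:98628436-98644536), a beta subunit of voltage-gated calcium channels, was at most 1.12 CPM in WT and V and at 32.1 and 33.3 (D1), 74.8 (D4), 33.3 and 32.1 (D5) and 57.3 and 64.4 (tVk12653) (7.31 ± 0.68, adjusted p = 0.000164). Both genes were higher in every tumour library than in any WT or V library, which the rule for choosing them required. Adcy6, which starts within 50 kb of Cacnb3, was also shared and higher. Clstn3, a calsyntenin of neuronal adhesion, had 0.284 to 1.12 CPM in WT and V (median 0.574) and 24.6 to 60.7 in the tumours (median 35.6), with the smallest adjusted p of the 10 (6.06 ± 0.39, adjusted p = 3.43e-05).

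Other genes of this group varied more between lines. Lin28b, which encodes an RNA-binding protein of fetal tissues that blocks let-7 microRNAs, was at most 0.997 CPM in WT and V, and rose to 51.2 to 90.4 CPM in D1, D4 and tVk12653 but to 3.70 and 6.62 in D5. It was shared and higher (8.03 ± 1.00, adjusted p = 0.000679), and its size differed between lines (F test, adjusted p = 8.31e-06). Slc47a1, an exporter of organic cations, was at 0 in 5 of the 6 WT and V libraries and at 0.324 CPM in the other, and reached 39.7 and 46.5 CPM (D1), 10.7 (D4), 8.19 and 4.58 (D5) and 35.4 and 47.9 (tVk12653). Car8, a protein related to carbonic anhydrases, was at 1.89 and 2.82 CPM in D1 but at 8.15 to 27.8 in the other lines, with at most 0.498 in WT and V.

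Wfikkn2, a secreted inhibitor of myostatin-like growth factors, rose from 0 to 2.84 CPM (median 1.28) to 40.2 to 130 CPM (median 68.9). Cryaa, the small heat shock protein alpha A crystallin of the lens, rose from 0 to 1.5 CPM (median 0.177) to 16.8 to 33.5 (median 26.3), and was one of the more even genes between lines (F test, adjusted p = 0.238). Fkbp10, a prolyl isomerase of collagen folding, had 0 to 2.27 CPM (median 1.31) in WT and V and 15.3 to 97.3 (median 67.5) in the tumours. P3h4, which acts in collagen hydroxylysine formation and starts within 50 kb of Fkbp10, was chosen after its values were seen. It had 0 to 4.26 CPM and 8.15 to 33.8 CPM and was also shared (3.97 ± 0.88, adjusted p = 0.00797). Aebp1, a protein of the extracellular matrix, was at most 1.12 CPM in WT and V and at 9.12 in D4 to 102 in 1 recipient of tVk12653.

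**Figure D3:**
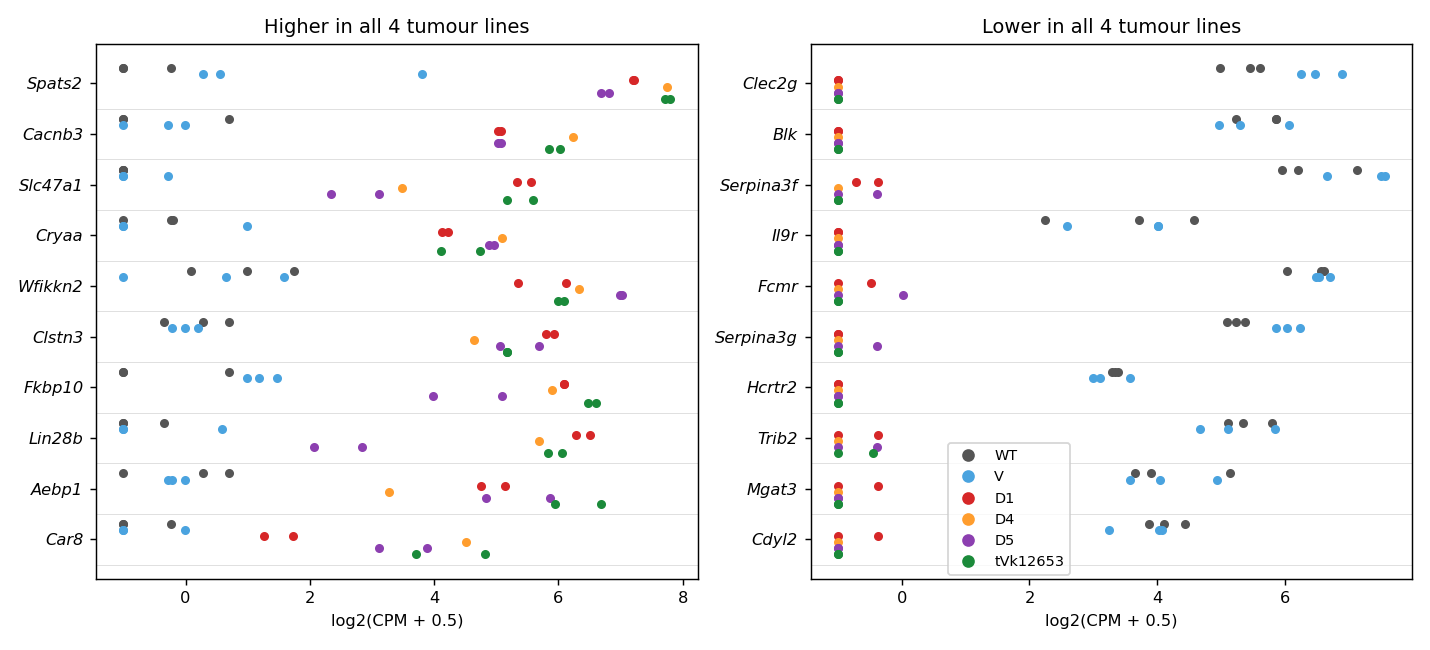
Level of the 10 genes with the largest rise (left) and the 10 with the largest fall (right) in their weakest line, as log2(CPM + 0.5), 1 point per library. Only genes without overlap were eligible, so tumour points lie to the right of all WT and V points on the left panel and to the left on the right panel. D5 is low for Lin28b and Slc47a1 and D1 low for Car8.

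Some further shared genes were picked after their values were seen. Yap1, the growth co-activator of the Hippo pathway, was at 2.98 to 28.4 CPM in WT and V (median 6.51) and at 85.6 to 134 in the tumours (median 98.1; log2 fold change 3.49 ± 0.54, adjusted p = 0.00182). The lines did not differ beyond their spread (F test, adjusted p = 0.792). Antxr1, a cell surface receptor for collagen and for anthrax toxin, was at 3.98 to 17.4 CPM and at 67.6 to 113 CPM (3.49 ± 0.39, adjusted p = 0.00043), again with no difference between lines past the test (F test, adjusted p = 0.937). Nbea, a large scaffold protein of membrane traffic, was at 22.2 to 111 CPM and at 393 to 1724 CPM. Mfge8, a secreted protein that bridges dying cells to phagocytes, was at 7.49 to 17.5 CPM and at 87.9 in D4 to 1112 in tVk12653. For all of them the tumour and the WT and V libraries did not overlap.

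Genes of ribosome production rose together. Of 30 genes listed and tested, 28 were higher over the lines and 25 were shared, none was lower, and their median log2 fold change was 1.58, against 0.05 for all genes tested. Nhp2, a protein of the snoRNA particles that guide pseudouridylation of ribosomal RNA, was at 13.5, 15.3 and 21.6 CPM for WT, 18.4, 24.2 and 13.9 CPM for V, against 82.1 and 89.0 (D1), 75.8 (D4), 180 and 209 (D5) and 50.1 and 58.5 (tVk12653) (2.54 ± 0.36, adjusted p = 0.00115). Every tumour library was above every WT and V library, and D5 was highest. Gar1, a partner of Nhp2 in these particles, was at 4.87 to 9.68 CPM (median 7.35) and at 17.7 to 25.2 (median 19.4), nearly the same in all lines (1.51 ± 0.25, adjusted p = 0.00222). Nle1, an assembly factor of the large ribosomal subunit, was at 5.67 to 13.4 CPM and at 27.3 to 44.4 (1.87 ± 0.26, adjusted p = 0.000982). Also among the 25 were Ncl, Npm1, Nop56, Nop58, Dkc1, Pes1, Ddx21, Polr1a and Polr1b, the last of these being subunits of RNA polymerase I.

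Because MYC is known to bind CACGTG, the promoter windows of these genes were searched for it. A window ran from 250 bases before to 50 after the start site, from RefSeq (GRCm38.p6), and CACGTG reads the same on both strands. Windows were found for 22 of the 25 shared ribosome production genes, and 6 of their 25 windows (24.0%) held CACGTG, against 10.2% of the 11668 windows of genes tested and 7.15% of all 32851 windows. Over all shared higher genes, 740 of 929 (79.7%) matched a window, which is under the 80% needed, so the comparison of that set is void. Of the 6 windows, those of Nle1 (minus strand, chr11:82908346-82908645), Mybbp1a (plus strand, chr11:72441077-72441376) and Utp20 (minus strand, chr10:88826765-88827064) are shown as examples, Nle1 because it is described above and the others chosen after the search. Each is written 5′ to 3′ on the gene's strand, with the motif in capitals.
Nle1: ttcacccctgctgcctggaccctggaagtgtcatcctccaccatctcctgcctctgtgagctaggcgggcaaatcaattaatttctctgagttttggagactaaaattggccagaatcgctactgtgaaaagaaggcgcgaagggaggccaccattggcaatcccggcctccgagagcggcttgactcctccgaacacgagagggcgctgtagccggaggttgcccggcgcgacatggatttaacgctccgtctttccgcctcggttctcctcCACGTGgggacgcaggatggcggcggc
Mybbp1a: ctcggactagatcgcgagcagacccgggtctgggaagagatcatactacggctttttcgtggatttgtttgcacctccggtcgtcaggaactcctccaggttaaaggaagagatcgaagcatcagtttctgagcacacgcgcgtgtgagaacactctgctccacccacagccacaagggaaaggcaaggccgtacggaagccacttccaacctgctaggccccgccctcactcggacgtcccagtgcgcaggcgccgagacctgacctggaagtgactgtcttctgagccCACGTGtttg
Utp20: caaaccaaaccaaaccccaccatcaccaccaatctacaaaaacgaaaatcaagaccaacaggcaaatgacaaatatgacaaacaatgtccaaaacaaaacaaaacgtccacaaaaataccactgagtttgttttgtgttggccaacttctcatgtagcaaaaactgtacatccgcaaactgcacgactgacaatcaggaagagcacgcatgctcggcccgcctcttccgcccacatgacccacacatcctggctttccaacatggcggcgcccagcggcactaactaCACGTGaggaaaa
In the windows shown the motif lay just after the start site, 23, 40 and 37 bases downstream. Its position in the rest of the 6 windows is not given here. Mybbp1a, a nucleolar protein that binds MYB, and Utp20, a factor of small subunit processing, were named after the search. Mybbp1a was at 149 to 194 CPM in WT and V and at 356 to 970 in the tumours (1.81 ± 0.25, adjusted p = 0.00102), and Utp20 at 75 to 84.1 and at 147 to 236 (1.21 ± 0.14, adjusted p = 0.00043). A match describes these letters alone, and binding was not measured.

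Genes of protein folding and of translation rose together with them. Of 15 chaperonin and heat shock genes, 13 were higher and shared and 1 was lower, with a median of 1.27. Of the shared genes, 8 encode subunits of the CCT chaperonin, the ring that folds actin and tubulin. Tcp1, the CCT subunit alpha, was at 219, 235 and 201 CPM for WT, 252, 318 and 234 CPM for V, and at 551 and 609 (D1), 648 (D4), 809 and 919 (D5) and 562 and 518 (tVk12653) (1.47 ± 0.16, adjusted p = 0.000418). Hspe1, the co-chaperonin of mitochondria, rose by 1.49 ± 0.21 on the log2 scale (adjusted p = 0.00124) and Hsp90ab1, a cytosolic HSP90, by 1.22 ± 0.15 (adjusted p = 0.000679). Tumour and other libraries did not overlap for any of these genes.

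Of 18 translation factors, 12 were higher and 10 shared, none was lower, and the median was 0.83. Eef1b2, a subunit of the exchange factor of elongation, was at 288 to 607 CPM in WT and V (median 400) and at 1012 to 1962 in the tumours (median 1342; 1.87 ± 0.18, adjusted p = 0.00022). Eif1a, an initiation factor, was at 40.6 to 61.3 CPM and at 125 to 166 (1.41 ± 0.14, adjusted p = 0.000244), with no difference between lines past the test (F test, adjusted p = 0.118). Eif4a1, the helicase of initiation, rose by 1.20 ± 0.22 (adjusted p = 0.00354). Of 22 tRNA synthetases and ATF4 targets, 6 were higher and 1 lower, with a median of 0.44, and only Gars, the glycyl-tRNA synthetase, was shared. Several of the genes named so far, such as Npm1, Tcp1, Hspe1 and Eef1b2, may share reads with processed pseudogenes, whose treatment in counting the sources do not state.

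Many mitochondrial genes rose as well. Of 21 genes of mitochondrial ribosomes and protein import tested (22 listed), 17 were higher and 8 shared, with a median of 1.06. Timm10, a carrier chaperone of the intermembrane space, was at 1.30 to 5.70 CPM (median 2.73) in WT and V and at 8.19 to 17.2 (median 12.4) in the tumours (2.17 ± 0.39, adjusted p = 0.00313). Mrpl17 of the large mitochondrial ribosomal subunit rose by 1.40 ± 0.19 and the import pore gene Tomm40 by 1.53 ± 0.26 (adjusted p = 0.000982 and 0.0026). Of 28 genes of oxidative phosphorylation, 15 were higher and 12 shared, none lower, with a median of 0.62. Ndufv1 of complex I moved from 54.5 to 67.4 CPM to 101 to 122 CPM (0.85 ± 0.12, adjusted p = 0.00119). Mitochondrially encoded genes held 1.24 to 1.66% of counts in WT and V and 1.77 to 2.49% in the tumours.

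In nucleotide synthesis, 12 of 18 genes were higher and 8 shared, none was lower, and the median was 1.12. Impdh1 and Impdh2, the 2 forms of the enzyme that commits purines to GTP, were both shared (1.35 ± 0.26 and 1.75 ± 0.37, adjusted p = 0.00439 and 0.00655), as was Gart of purine synthesis (1.47 ± 0.23, adjusted p = 0.00183). Of 10 genes of serine and one-carbon metabolism, 7 were higher and 4 shared, with a median of 0.80. Shmt1, the cytosolic enzyme that passes a carbon from serine to folate, was at 6.03, 4.47 and 5.68 CPM for WT, 1.99, 7.84 and 2.92 CPM for V, and at 58.9 and 76.7 (D1), 30.3 (D4), 182 and 181 (D5) and 52.7 and 39.9 (tVk12653) (4.11 ± 0.54, adjusted p = 0.000894). Its lines differed in size (F test, adjusted p = 3.54e-05), whereas Shmt2, the mitochondrial form, moved from 134 to 280 CPM to 281 to 390 CPM (0.75 ± 0.13, adjusted p = 0.00282) with no difference between lines past the test (F test, adjusted p = 0.716). Of 9 polyamine genes, with a median of 0.05, only Srm, the spermidine synthase, passed (1.93 ± 0.37, adjusted p = 0.00411).

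Lactate handling differed within glycolysis, where 7 of 20 genes were higher and 2 lower, with 3 and 1 shared and a median of 0.73. Ldha, lactate dehydrogenase A, was at 35.7 to 73.4 CPM in WT and V (median 43.5) and at 133 to 346 in the tumours (median 145; 1.98 ± 0.29, adjusted p = 0.00138). Slc16a1, the lactate carrier MCT1, rose by 2.55 ± 0.56 (adjusted p = 0.00801), led by D5 at 351 and 413 CPM, and the lowest tumour library overlapped the highest WT library. Slc16a3, the carrier MCT4, fell by 3.71 ± 0.81 (adjusted p = 0.00753), from 3.89 to 43.6 CPM to at most 2.43 CPM. The highest value of Slc16a3 was in WT replicate 2, the library with the most myeloid RNA. In lipid synthesis 7 of 21 genes were higher and 1 lower (median 0.52), and Sqle and Fasn, enzymes of cholesterol and of fatty acids, were shared (2.31 ± 0.26 and 1.73 ± 0.20, adjusted p = 0.00043 and 0.000434). Of 22 proteasome genes 8 were higher (median 0.46), but only Psmc4 was shared.

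Most of the proliferation genes listed rose over the lines, and few of them passed in each line. Of 27 genes of mitosis, 23 were higher and none lower, with the largest median of the pathway lists, 1.80, and Ube2c, Kif11, Foxm1 and Mybl2 were shared (14.8% of the list, against 8.18% of all genes tested). Of 29 genes of DNA replication, 18 were higher and 3 (10.3%) were shared (Mcm10, Gins1 and Prim1), with a median of 1.34. Ube2c, a ubiquitin carrier of the anaphase-promoting complex, was at 12.1, 36.1 and 17.6 CPM for WT, 7.98, 24.6 and 7.14 CPM for V, and at 36.5 and 44.4 (D1), 53.1 (D4), 212 and 231 (D5) and 40.5 and 57.4 (tVk12653) (2.43 ± 0.59, adjusted p = 0.0125). The lowest tumour library was barely above the highest WT library, and D5 stood apart at the top. By line, the median of the mitosis list was 2.77 in D5, 1.37 in D1, 1.01 in tVk12653 and 0.76 in D4. Foxm1, a transcription factor of the mitotic genes, was at 11.5 to 42.1 CPM (median 20.3) and at 54.5 to 164 (median 96.8; 2.12 ± 0.40, adjusted p = 0.00403), and its lines did not differ past the test (F test, adjusted p = 0.0848).

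Among 20 tested regulators of the cell cycle, 5 were higher and 3 lower, with a median of 0.19. These were 25% and 15% of the list, against 18.6% and 15.4% of all genes tested. Those lower were all shared: Cdk6 (-3.17 ± 0.83, adjusted p = 0.0166), Ccnd3 (-1.24 ± 0.23, adjusted p = 0.00344) and the retinoblastoma relative Rbl2 (-1.2 ± 0.18, adjusted p = 0.00139). Cdk6, a kinase that pairs with D cyclins, was at 95.8, 88.3 and 59.1 CPM for WT, 20.4, 47.1 and 38.6 CPM for V, and at 14.6 and 2.28 (D1), 0.562 (D4), 13.7 and 18.3 (D5) and 1.40 and 0.366 (tVk12653). Its close relative Cdk4, looked at afterwards, did not pass (0.81 ± 0.29, adjusted p = 0.051), with 182 and 181 CPM in D5 against 51.3 to 64.2 in WT and V. The D cyclins, also looked at afterwards, differed between lines. Ccnd1 was at 15.9 CPM in D4 and at 52.6 and 36.9 in D5 but at most 0.732 in D1 and tVk12653. Ccnd2 was at 1751 to 3343 CPM in D1, D4 and tVk12653 but at 28.8 and 141 in D5. Ccnd3 alone of the D cyclins changed the same way in all lines, from 60.7 to 155 CPM to 27.9 to 49.0 CPM.

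Targets of p53, the tumour suppressor that halts damaged cells, were mostly higher. Of 16 genes, 9 were higher and 1 lower, with a median of 1.01, and Cdkn1a, Phlda3, Zmat3, Aen, Ei24 and Gtse1 were shared. Phlda3, an inhibitor of AKT at the membrane, was at 0 to 0.498 CPM in WT and V and at 17.3 and 15.5 (D1), 6.60 (D4), 14.3 and 14.3 (D5) and 2.10 and 4.39 (tVk12653) (5.67 ± 0.84, adjusted p = 0.00137). Cdkn1a, the cyclin-dependent kinase inhibitor p21, was at 1.99 to 15.3 CPM (median 6.32) and at 65.6 and 84.0 in D1 but 18.6 to 23.7 in the other lines (2.36 ± 0.54, adjusted p = 0.00921). Fas, the death receptor, fell in every line, from 15.3 to 31.1 CPM to 1.30 to 7.72 CPM (-2.44 ± 0.46, adjusted p = 0.00406). In the BCL2 family, 2 of 12 genes tested were higher and 1 lower (median 0.16). These were 16.7% and 8.33% of the list, against 18.6% and 15.4% of all genes tested. Pmaip1 and Bax, both promoters of apoptosis, rose over the lines (2.23 ± 0.36 and 1.45 ± 0.28, adjusted p = 0.00206 and 0.00461). Neither was shared. D4 was at 52.9 CPM for Pmaip1 and 25.4 for Bax, within the range of WT and V.

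**Figure D4:**
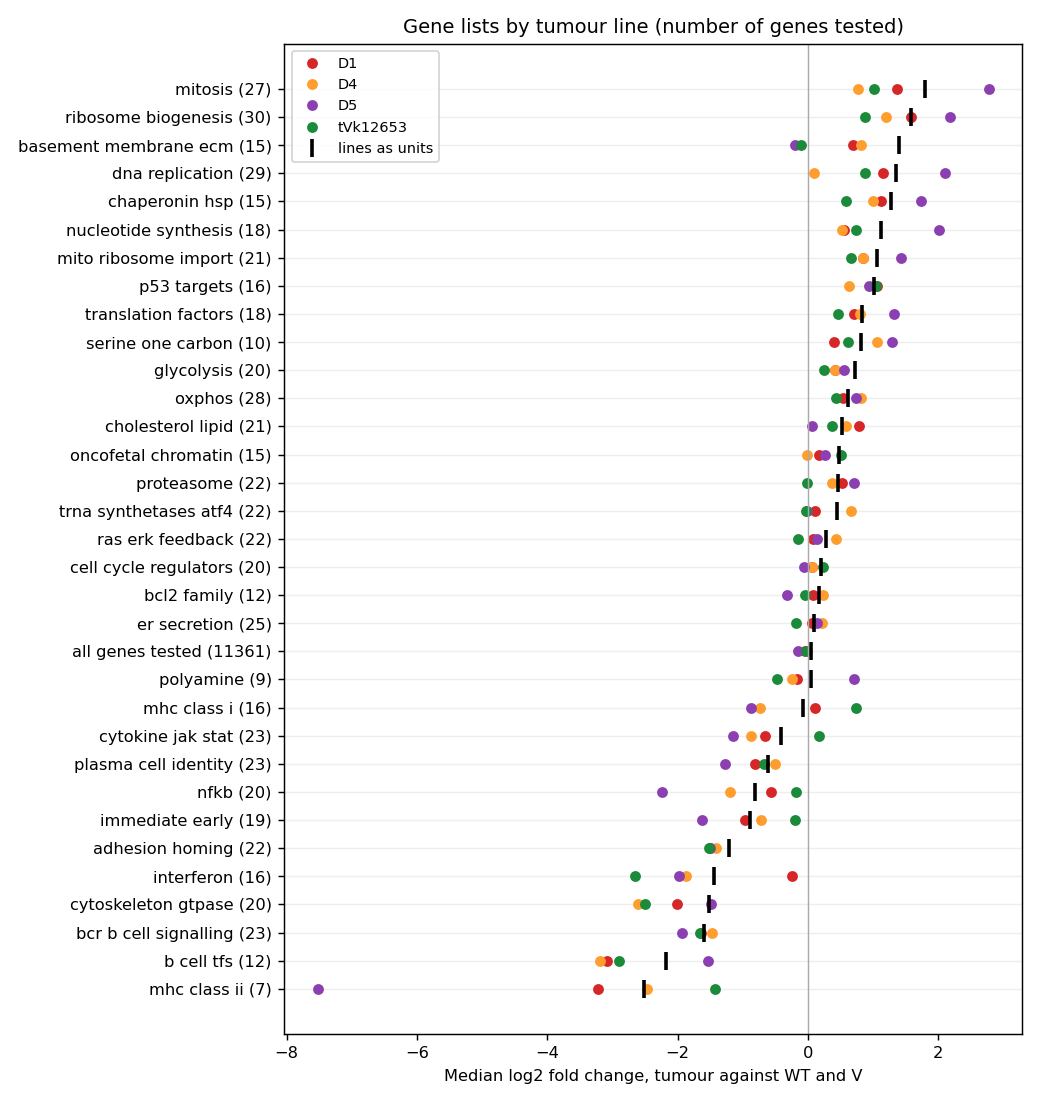
Median log2 fold change of the 32 pathway lists and of all genes tested, by tumour line (points) and for the lines as units (black ticks), with the number of genes tested in brackets. Ribosome biogenesis, chaperonin and translation lists are above 0 in every line, mitosis is highest in D5, and B cell and MHC class II lists are below 0 in every line.

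The fold change over the lines compares their mean level with that of WT and V, so a line with a high level weighs more, and a list median over the lines can lie outside the range of the medians of single lines. This was so for genes of basement membrane and matrix, with 15 tested of 18 listed, at 1.40 over the lines and between -0.20 and 0.81 in single lines. It was also so for glycolysis (0.73 over the lines, 0.25 to 0.56 in single lines) and for adhesion and homing (-1.21 and -1.52 to -1.41). All genes tested, at 0.05 over the lines, were at -0.15 to -0.02 in single lines. Of the basement membrane and matrix genes, 7 were higher and 4 lower. Lamb2, Lamc1, Fkbp10 and P3h1 were shared and higher, and Nid1, Timp2 and Fn1 shared and lower. Lamb2, a laminin chain, was at 9.22, 3.35 and 1.70 CPM for WT, 22.9, 4.63 and 4.54 CPM for V, and at 74.0 and 86.7 (D1), 139 (D4), 52.8 and 52.2 (D5) and 126 and 162 (tVk12653) (3.90 ± 0.59, adjusted p = 0.00157). Timp2, an inhibitor of matrix proteases, was at 6.48 to 29.1 CPM and at most 3.51 in the tumours (-4.14 ± 0.66, adjusted p = 0.00199).

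The genes that fell most were close to silent in all 7 tumour libraries. Blk, a SRC-family kinase of B cells (chr14:63372837-63417187), was at 37.2, 57.7 and 58.0 CPM for WT, 38.9, 30.7 and 66.2 CPM for V, and had no count in any tumour library, at least 68.6-fold lower against the floor of 3 counts per library (adjusted p = 0.000107). Clec2g, a C-type lectin (chr6:128934381-128984707), was at 31.3 to 118 CPM and had no count in the tumours, at least 96.4-fold lower (adjusted p = 3.97e-05). Il9r, the interleukin 9 receptor, was at 4.26 to 23.3 CPM and Hcrtr2, an orexin receptor, at 7.48 to 11.4 CPM, and neither had a count in a tumour library (at least 18.3-fold and 13.3-fold lower, adjusted p = 0.00137 and 0.000282). Of the shared lower genes, 6 had no tumour count, the other two being Cxcr6 and Rabl2. Among the shared higher genes, Rab34 and 1700012B07Rik had no count in WT and V (at least 3.82-fold and 6.41-fold higher).

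Serpina3f and Serpina3g, protease inhibitors whose starts lie within 50 kb of each other on chromosome 12, were at 61.8 to 190 and 33.5 to 74.8 CPM in WT and V and at most 0.270 and 0.264 in the tumours (adjusted p = 2.24e-05 and 1.68e-05). Both belong to a family of closely similar copies, and Clec2g to a cluster of related lectins, so their counts may be split between copies. Fcmr, the receptor for IgM, was at 64.8 to 104 CPM and at most 0.509 in the tumours (adjusted p = 1.68e-05). Trib2, a pseudokinase, was at 24.9 to 57.0 CPM and at most 0.270 (adjusted p = 2.26e-05). Mgat3, an enzyme of N-glycan branching, and Cdyl2, a chromodomain protein, were at 11.5 to 34.9 and 8.97 to 21.2 CPM and had a count in 1 tumour library only, of D1 (adjusted p = 0.000123 and 5.00e-05).

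Many genes of the B cell receptor and its signalling fell. Of 23 genes, 14 were lower and 11 shared, none was higher, and the median was -1.60. Cd79a, a signal chain of the receptor that normal plasma cells still transcribe, was at 212, 231 and 408 CPM for WT, 234, 245 and 389 CPM for V, at 0 in D1 and D4, and at 0.528 and 0.764 in D5 and 0.466 and 0.732 in tVk12653 (-9.90 ± 0.76, adjusted p = 6.70e-05). Cd79b, its partner chain, was still at 66.2 to 208 CPM in the tumours against 203 to 332 in WT and V, and was lower over the lines but not shared (-0.92 ± 0.29, adjusted p = 0.0339, or 0.0502 to 0.0729 without any 1 WT or V library). Also shared were Cd22, Syk, Lyn, Blk, Plcg2, Pik3cd, Pik3ap1, Ptpn6 and Fcgr2b. Of 12 B cell transcription factors tested (16 listed), 7 were lower and 5 shared, with a median of -2.18. Irf8 was at 88.7 to 168 CPM and at most 2.70 in the tumours (-6.87 ± 0.65, adjusted p = 0.000204), Ebf1 at 34.2 to 72.3 and at most 3.51 (-5.60 ± 0.71, adjusted p = 0.000744), and Bcl6 at 3.49 to 33.5 and at most 1.89 (-3.25 ± 0.58, adjusted p = 0.00292). The B cell marker sum, given above, moved the same way, and Cd79a, Cd22 and Ebf1 are also in that marker list. Its part in these falls was not tested.

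Several MHC class II genes fell in every line, while class I genes differed between lines. Of 7 MHC class II genes tested (10 listed), 4 were lower and H2-Aa, H2-Ab1 and H2-Eb1 were shared, with a median of -2.52. H2-Ab1 was at 186, 323 and 225 CPM for WT, 121, 258 and 277 CPM for V, and at 3.78 and 10.5 (D1), 1.54 (D4), 1.59 and 1.27 (D5) and 9.09 and 13.2 (tVk12653) (-5.35 ± 0.69, adjusted p = 0.000803). The fall of H2-Eb1 (-2.75 ± 0.90, adjusted p = 0.0408) no longer passed without any 1 of the WT or V libraries (adjusted p = 0.0549 to 0.0797). Of 16 MHC class I genes, with a median of -0.07, none passed over the lines. By line, their median was 0.11 in D1, -0.73 in D4, -0.88 in D5 and 0.73 in tVk12653. The values of the 2 most abundant are given. B2m, the light chain of class I, was at 2466 to 5113 CPM in WT and V, at 5049 and 6344 in tVk12653, with less in D1 (2291 and 2474), D4 (1204) and D5 (479 and 415). Calr, a chaperone of class I loading, was at 2559 to 3670 CPM in WT and V and from 1071 in tVk12653 to 5263 in D5.

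Genes tied to plasma cell identity were lower or did not pass the test. Of 23 tested genes, 9 were lower and 6 shared (Tnfrsf17, Slamf7, Cd38, Jchain, Cd28 and Fcrl5), none was higher, and the median was -0.61. Jchain, the chain that joins IgM and IgA into polymers, was at 37321, 33894 and 64415 CPM for WT, 35237, 41250 and 55165 CPM for V, and at 698 and 940 (D1), 44.5 (D4), 1505 and 721 (D5) and 4027 and 6808 (tVk12653) (-4.63 ± 1.07, adjusted p = 0.0097). Cd38, a surface enzyme used as a myeloma target in people, was at 20.9 to 37.3 CPM and at 0 in D4 and tVk12653, at 0.540 and 0 in D1 and at 2.38 and 0.764 in D5 (-5.85 ± 0.91, adjusted p = 0.00182). Tnfrsf17, the survival receptor BCMA, was at 83.8 to 150 CPM and at 8.37 and 2.82 (D1), 32.1 (D4), 58.4 and 83.3 (D5) and 20.7 and 24.1 (tVk12653) (-1.91 ± 0.60, adjusted p = 0.0351). Slamf7, a surface receptor of plasma cells, was at 708 to 1174 CPM and at 247 to 605 CPM (-1.25 ± 0.21, adjusted p = 0.0026). Tnfrsf17 and Slamf7 were picked after their values were seen. Of 25 genes of the endoplasmic reticulum and secretion, 2 were higher and 1 lower (median 0.09). These were 8% and 4% of the list, against 18.6% and 15.4% of all genes tested. The protein disulfide isomerase P4hb rose (1.16 ± 0.20, adjusted p = 0.00254) and the BiP cofactor Dnajb9 fell (-1.29 ± 0.20, adjusted p = 0.00181), each shared.

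Many adhesion and cytoskeletal genes of leukocytes fell. Of 22 genes of adhesion and homing, 12 were lower and 9 shared, none higher, with a median of -1.21. Ccr9, the receptor for the gut chemokine CCL25, was at 20.3 to 60.5 CPM (median 32.3) and at most 0.702 in the tumours (-6.16 ± 0.44, adjusted p = 4.93e-05), and Cxcr6, which starts within 50 kb of it, had no tumour count. Of 20 genes of the leukocyte cytoskeleton and its GTPases, 14 were lower and 13 shared, none higher, with a median of -1.52. Dock8, an activator of CDC42, was at 385 to 546 CPM (median 444) in WT and V, at 79.1 and 62.4 (D1), 9.55 (D4), 4.49 and 6.88 (D5) and 23.5 and 18.7 (tVk12653) (-4.11 ± 0.68, adjusted p = 0.00231). Sash3, an adaptor of lymphocytes on X, was at 37.4 to 84.6 CPM and at most 2.97 (-5.82 ± 0.43, adjusted p = 5.04e-05). Itgam, the integrin alpha M of myeloid cells, was at 19.4 to 86.8 CPM and at most 8.10 (-4.29 ± 0.59, adjusted p = 0.000974), with its highest values in WT replicate 2 and D1 replicate 1. Many genes of both lists are also transcribed in neutrophils and monocytes, whose marker sums were lower in the tumours, and the part of those cells was not tested.

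Signalling lists were mixed. Of 20 NF-kB genes (median -0.81), 3 were lower, all shared. That was 15% of the list, where 15.4% of all genes tested were lower and 9.7% shared and lower. The 3 were Traf2, an adaptor of TNF receptors (-1.09 ± 0.21, adjusted p = 0.00439), Nfkb1, the p50 precursor (-0.89 ± 0.19, adjusted p = 0.00652), and Cflar, an inhibitor of caspase 8 (-0.72 ± 0.15, adjusted p = 0.00556). Of 16 interferon genes tested (24 listed), 5 were lower and 4 shared, with a median of -1.45. Ddx58, which encodes the RNA sensor RIG-I, was at 152 to 189 CPM and at 24.9 to 63.6 (-1.88 ± 0.23, adjusted p = 0.0006), and the sensor Ifih1 and the factor Irf7 also fell (-2.45 ± 0.59 and -1.80 ± 0.46, adjusted p = 0.0111 and 0.0145). Of 23 cytokine receptor and JAK-STAT genes, 6 were lower and 1 higher, with a median of -0.41. The one that rose was Igf1r, the receptor for insulin-like growth factor 1, from 153 to 195 CPM (median 175) to 464 to 817 (median 607; 1.80 ± 0.14, adjusted p = 7.09e-05), with 1.47 in D5 to 2.04 in tVk12653 on the log2 scale by line. Socs3, a feedback inhibitor of STAT3, fell (-3.13 ± 0.63, adjusted p = 0.00505).

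Of 22 tested genes of RAS and ERK signalling and its feedback, 7 were higher and 2 lower (median 0.28), with Hras, Spry1 and Spred2 shared and higher and Map2k1 shared and lower. Hras was at 18.8 to 28.5 CPM and at 40.1 to 79.5 (1.45 ± 0.22, adjusted p = 0.00158). Spry1, a feedback inhibitor of the pathway, was at 0 to 1.86 CPM in WT and V, at 9.99 and 4.34 (D1), 21.6 (D4), 2.38 and 1.78 (D5) and 5.36 and 33.3 (tVk12653), so that the lowest tumour library overlapped the highest WT library (6.18 ± 1.02, adjusted p = 0.00372). Spred2, another such inhibitor, was at 9.97 to 17.5 CPM and at 38.1 and 32.9 (D1), 63.3 (D4), 86.7 and 89.7 (D5) and 16.8 and 35.9 (tVk12653) (1.95 ± 0.35, adjusted p = 0.00318). Of 19 immediate early genes tested, 4 were lower and 1 higher (median -0.89), with Egr3 and Junb shared. Egr3 was at 115, 35.8 and 15.6 CPM for WT, at 2.99, 5.35 and 2.59 for V and at most 0.562 in the tumours (-6.16 ± 0.93, adjusted p = 0.00161), and Junb overlapped (-1.79 ± 0.39, adjusted p = 0.00719).

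The share of genes changed differed between chromosomes. In each library, the median log2 shift of the genes of a chromosome, relative to WT and V and to all genes of the library, was between -0.0863 and 0.115 in the WT and V libraries. On chromosome 5 it was -0.76 and -0.81 in D1 and -0.90 in D4, and between -0.24 and 0.09 in the other lines. Chromosome 8 was at -0.74 and -0.81 in D1 and at -0.74 and -0.74 in tVk12653, and chromosome 14 at -0.75 and -0.79 in tVk12653. Chromosome 7 was at 0.75 and 0.75 in tVk12653, chromosome 15 at 0.69 in D4, and chromosome 3 at 0.54 and 0.52 in D5. Recipients of 1 line had nearly the same shifts, and none of these was present in all 4 lines. DNA copy number was not measured in these files.

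**Figure D5:**
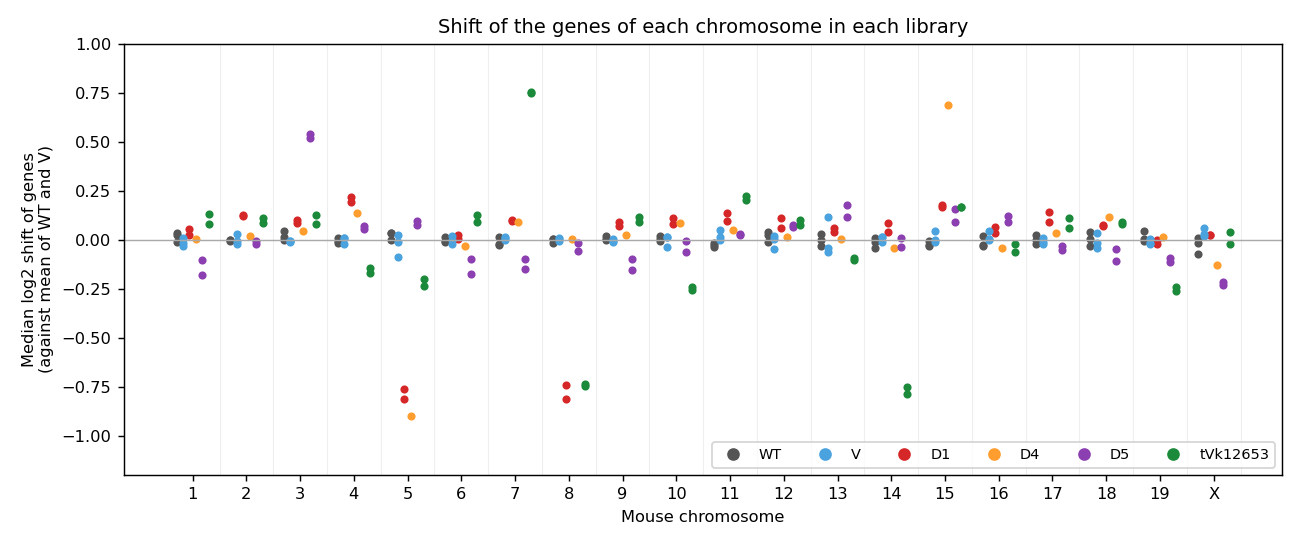
Median log2 shift of the genes of each autosome and X (vertical axis) in each library, relative to the mean of WT and V and to all genes of that library. WT and V points stay near 0, while chromosomes 5 and 8 in D1, 5 in D4, 3 in D5 and 7, 8 and 14 in tVk12653 stand apart, with D4 above 0 on chromosome 15.

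The shared genes were also unevenly spread. Of 702 genes tested on chromosome 5, 11 (1.57%) were shared and higher and 119 (17.0%) shared and lower, against 8.18% and 9.7% of all genes. On chromosome 15, which holds Myc, Spats2 and Cacnb3, 69 of 451 (15.3%) were shared and higher. On chromosome 7 these were 96 of 865 (11.1%), and on chromosome 8 15 of 618 were shared and higher and 74 shared and lower. Cdk6, Cd38 and Jchain lie on chromosome 5, and whether their falls follow that shift was not tested. Outside chromosomes 3, 5, 7, 8, 14 and 15, those with the shifts given above, 671 of 7838 genes (8.56%) were shared and higher and 741 (9.45%) shared and lower. The chromosomes left out were picked from these data and shifted in both directions, which can offset each other in such shares. The part of the shifts in the shared genes was not tested.

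Sharing a direction did not mean sharing a size. An F test among the 4 lines passed for 579 of the shared higher genes (62.3%) and 610 of the shared lower genes (55.4%). Both shares were below that of all genes, 7651 (67.3%). The genes that follow were not shared, being called higher in some lines and lower in others. Nes, an intermediate filament of progenitor cells, was at 747 and 845 CPM in D5, 166 in D4 and 41.9 and 32.7 in D1 but at 0 in tVk12653, against 0.997 to 19.9 in WT and V. Fyn, a SRC-family kinase, was at 722 and 743 CPM in D5, 79.0 in D4, 30 and 4.12 in D1 and 0 in tVk12653, against 34.4 to 110. Ly6k, a surface protein of the testis, was at 788 CPM in D4 and at most 1.32 in the other lines, against 14.2 to 77.8. H2-M10.1, a nonclassical class I gene, was at 463 and 437 CPM in tVk12653 and at most 0.264 elsewhere in the tumours, against 2.56 to 62.3. Lifr, the receptor for leukaemia inhibitory factor, was at 366 and 254 CPM in D5 and at most 2.97 in the other lines, against 1.14 to 18.6. These genes had the widest ranges between lines among those called in both directions.

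WT and V were also each set against the tumours. Against WT alone 1384 genes were higher (12.2%) and 1465 lower (12.9%), and against V alone 1218 (10.7%) and 1202 (10.6%). These counts depended on single libraries. Against WT alone, 763, 677 and 636 genes were higher without WT replicates 1, 2 and 3, and 935 were lower without WT replicate 2. Against V alone, 374, 478 and 262 were higher and 590, 623 and 501 lower without V replicates 1, 2 and 3. Because both comparisons use the same tumour units, their calls are not independent. Both called 937 genes higher and 1052 lower, and of the shared genes 760 of 929 and 925 of 1102 were called against each. V carries the MYC transgene of the tumours, and Myc itself was at 311 to 431 CPM in V against 34.9 to 73.0 in WT.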

How the data were processed

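The authors deposited raw read counts per gene symbol for 13 libraries, without normalization. Total RNA (RNeasy Micro) went into SMARTer stranded libraries, per the labels. STAR 2.6.1d and GRCm38.p6 are named in the submitters' processing notes. The sources used here do not give the counting tool or strand setting, so reads of a gene and its antisense partner may not be told apart. Of 22997 symbols, 22000 matched RefSeq. Total counts were 2096815 to 8512281 per library, and floors and intervals cover counting error only.

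Genes were filtered with filterByExpr (minimum count 10, total 15), leaving 11361, and scaled with TMM factors. The quasi-likelihood test of edgeR 4.0.16 (robust, R 4.3.3) was used, and p-values were adjusted by Benjamini-Hochberg over the genes tested, with a threshold of 0.05. The test over lines used 10 units (4 lines with recipients summed, 3 WT, 3 V) and contrasted the tumours with the mean of WT and V. Each line was tested in a model of the 13 libraries that had 6 group means. CPM is scaled per library. Errors after ± are standard errors of log2 fold changes. Where nothing says that libraries came from separate mice, p-values measure the spread between these libraries.

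The members and the 41 lists (32 of pathways, 9 of markers) were chosen with earlier results of these data known. The text names the 10 genes per direction with the largest change in their weakest line among shared genes without overlap and with at least 8 CPM in the higher arm. It also names up to 3 shared genes per pathway list (or 2 called or abundant ones), Myc, Nras, Sdc1, Ptprc and Jchain, the 3 genes of highest level in each marker list, and the 5 with the widest range among genes called in opposite directions. Predicted, ribosomal, histone, mitochondrial, sex-linked and marker genes were left out of the largest changes. Some members of the lists are counted but not reported by name here. On simulated data the test over lines recovered 14% of 2-fold and 77% of 4-fold changes with 1 false call, and the rule for shared genes 0% and 23% with 0. The simulation let each WT or V library deviate by as much as a line, so the shares for shared genes need not hold here. Alternatives were RLE factors, other filters, DESeq2 1.42.0, a fold threshold, other units, a replicate block and each library or line left out.

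To check whether replicate numbers pair libraries, deviations from group means were correlated. WT and V libraries of the same number had r of 0.242, 0.210 and 0.160, each above the 0.1 asked for by the rule used. Each other pair of groups compared included D1, D5 or tVk12653, where deviations of the recipients from their mean are equal and opposite. Those pairs are therefore no comparison, and these values do not settle whether WT and V libraries were paired. Any pairing of WT and V would come from these data and not from the labels.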

Additional observations from a re-analysis of the deposited data

Results flagged for a closer look

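Among the genes named, some had 1 line whose level stood apart from the other 3, where the gap to the nearest line divided by the whole range of the 4 lines, on log2(CPM + 0.5), was above the critical value of 0.829. Chance alone does this in about 1 in 20 groups of lines. The line that stood apart was D1 for Cdkn1a (0.893, higher), Il10ra (0.949), Itgam (0.839), Sash3 (0.927) and Lyz2 (0.850), where the last 4 were shared and lower but least so in D1. D1 was also the only line with a count for Mgat3, Cdyl2 and Epx, and D5 the only one for Serpina3g, which gives a ratio of 1 for each, from very few reads. D4 stood apart for Trib2 (0.876, no count), Ndufv1 (0.838), Bax (0.923, lower), Ms4a1 (0.903) and Ly6k (0.872). D5 stood apart for Impdh1 (0.886) and Ube2c (0.841), both highest there, and tVk12653 for H2-M10.1 (0.939). Il10ra, Itgam, Sash3 and Lyz2 were highest, of the 4 lines, in the line whose replicate 1 held 1409 CPM of neutrophil markers, and the part of those cells was not tested.

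Several genes were called higher in some lines and lower in others, with a difference between lines by the F test. The adjusted p-values were 1.61e-07 for B2m, 5.38e-07 for Calr, 1.67e-06 for Ly6k, 2.33e-06 for Nes, 1.41e-05 for Il5ra, 2.26e-05 for Lifr, 2.70e-05 for Pecam1, 0.000142 for H2-M10.1 and 0.000411 for Fyn. Il5ra, the interleukin 5 receptor, was at 263 and 208 CPM in D5 against 42.4 to 117 in WT and V and at most 10 in D1 and tVk12653. Pecam1, an adhesion protein of endothelium and leukocytes, was at 402 and 147 CPM in D1 against 52.1 to 95.7 in WT and V and at most 6.29 in tVk12653.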

How the results depend on the processing

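Counts within 1.5 times those reported came from RLE factors (2102 higher and 1749 lower over the lines, 895 and 1123 shared) and DESeq2 (2390 and 2088, 833 and 1154 shared). Without a line sum, 13 libraries as units gave 3338 higher and 4208 lower, and with the replicate block in a fit of 13 libraries 3046 were higher and 3931 lower. The replicate block left 844 shared higher and 1026 shared lower. Tested against a fold of 1.5, 969 were higher and 1011 lower. With no test and at least 2-fold in each line, 411 were shared and higher. Leaving out both WT replicate 2 and D1 replicate 1, an alternative chosen after seeing the data, 709 were higher and 975 lower than in WT alone.

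With 1 library or line left out, counts over the lines were 1557 to 2207 higher and 1384 to 2052 lower, and shared counts 768 to 1267 and 810 to 1419. Against WT alone they were 636 to 1726 and 935 to 1840, against V alone 262 to 1490 and 501 to 1526, lowest without WT replicate 3 or 2 and without V replicate 3, and 6501 to 8191 genes differed between lines. Log2 fold changes ranged from -6.63 (without D4) to 3.15 for Ly6k, from -6.59 (without tVk12653) to 3.72 for H2-M10.1 and from -1.55 (without D1) to 0.84 for Pecam1. Of the other values of named genes, 3055 kept their direction and call, 52 lost the call and 9 gained it, among the lost Nras, Nes, Cd79b, H2-Eb1, Tfrc, Tcf4 and Epx. In the simulation a change of 2-fold was seldom recovered, which for shared genes need not hold in these data.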

Other observations

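Marker genes of other cell types gave further shared falls. Of 19 neutrophil markers, all tested, 18 were lower and 14 shared, with a median log2 fold change of -3.74. S100a9, a calcium-binding protein of neutrophil granulocytes, was at 511 to 2533 CPM in WT and V and at 274 and 80.9 in D1 but 12.7 to 35.4 in the other lines, and the granule genes Ngp and Ltf were highest of the tumours in D1 replicate 1 too, at 331 and 194 CPM. Of 12 monocyte and macrophage markers tested, 11 were lower and 9 shared (median -3.66), of 9 T and NK cell markers 8 and 6 (-3.63), and of 11 B cell markers 10 and 6 (-5.97). Of 7 basophil, mast cell and eosinophil markers 5 were lower and 2 shared (-4.0), and of 9 dendritic cell markers 6 and 3 (-3.41). Prg2, the major basic protein of eosinophils, was at 345 to 815 CPM in WT and V and at most 24.6 in the tumours. Epx, of the same list, was at 0 in WT replicate 3 and V replicate 2, where Prg2 was at 551 and 815 CPM. Prg3, of the same list, went the other way in tVk12653, at 85.3 and 372 CPM against 1.06 to 4.22 in WT and V. It was at most 5.67 CPM in the other lines.

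Erythroid and stromal markers did not all move this way. Of 13 erythroid markers 9 were lower, 3 of them shared, and 1 was higher (median -3.25), namely Tfrc, the transferrin receptor, at 20.1 to 166 CPM in WT and V and 63.1 to 240 in the tumours. Of 5 stromal and endothelial markers 1 was lower, shared, and 1 higher (median 0.15). The higher one, Alpl, an alkaline phosphatase, was at 36.7 to 77.7 CPM in WT and V, highest in D4 at 444 CPM and lowest of the lines in tVk12653 at 108 and 61.5. The single megakaryocyte marker tested was not called. Of 15 oncofetal and chromatin genes tested (20 listed), 5 were higher and 2 lower (median 0.47), and only Lin28b was shared.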
